A study of Mus musculus with 3 samples.

Results

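The prostaglandin and leukotriene synthesis genes described here are 9 genes taken by name: Pla2g4a, Ptgs1, Ptgs2, Ptges, Hpgds, Tbxas1, Alox5, Alox5ap and Lta4h. They are 9 of the 22342 coding genes of GENCODE M1 on chromosomes 1 to 19 and X of mm9, and all 9 were found in the annotation and had enough tags to be compared. The study mapped RNA Pol_II phosphorylated at Ser5 of the repeats of its largest subunit, a mark of polymerase that has begun transcription, by ChIP-Seq with a single antibody (ab5131). The cells were primary macrophages grown from the bone marrow of female Fvb mice (Fvb/Hsd in the study's methods) in medium conditioned by L929 cells and used on the seventh day of differentiation. There were 3 libraries: Ser5 from untreated macrophages, Ser5 from macrophages treated with LPS (lipopolysaccharide, a component of the bacterial outer membrane) at 10 ng/ml for 2 h, and input DNA, the sheared chromatin before precipitation, from untreated macrophages. Each condition thus had 1 library and no replicate, so no test between conditions was possible, and the 95% intervals given below are exact intervals, or Wilson intervals for shares, that cover counting error only.

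Prostaglandins and leukotrienes are lipid mediators made from arachidonate. Cytosolic phospholipase A2 frees arachidonate from membranes, and the cyclooxygenases convert it to prostaglandin H2, from which terminal synthases make prostaglandin E2, prostaglandin D2 and thromboxane A2. In the other branch, 5-lipoxygenase and its activating protein make leukotriene A4, which a hydrolase turns into leukotriene B4. Macrophages make mediators of both branches, and the inducible cyclooxygenase gene, Ptgs2, is a textbook target of LPS.

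The 250 bases before the start of Ptgs2 and of Ptges, the 2 genes with more Ser5 after LPS, and of Alox5 and Hpgds, the 2 genes with the lowest ratios at the TSS among those with more than 100 tags there, are shown because the largest differences between the libraries lay at and beyond these starts. They were read from the mm9 genome, 5′ to 3′ on the strand of the gene, and the base next to the transcription start site (TSS) comes last. The Ptgs2 stretch is chr1:151947004-151947253 (plus strand), that of Ptges chr2:30758820-30759069 (minus strand), that of Alox5 chr6:116411197-116411446 (minus strand) and that of Hpgds chr6:65094903-65095152 (minus strand). Capitals mark exact matches to a small set of motifs.
Ptgs2: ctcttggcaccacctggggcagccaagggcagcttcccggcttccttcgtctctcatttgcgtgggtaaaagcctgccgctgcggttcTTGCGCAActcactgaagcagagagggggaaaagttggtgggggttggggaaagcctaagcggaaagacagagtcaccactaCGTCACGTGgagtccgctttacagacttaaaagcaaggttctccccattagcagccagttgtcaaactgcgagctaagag
Ptges: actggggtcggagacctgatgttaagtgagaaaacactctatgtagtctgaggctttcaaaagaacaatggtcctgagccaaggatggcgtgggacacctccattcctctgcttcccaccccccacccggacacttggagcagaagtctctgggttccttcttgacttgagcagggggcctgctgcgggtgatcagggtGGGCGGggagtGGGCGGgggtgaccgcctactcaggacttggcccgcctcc
Alox5: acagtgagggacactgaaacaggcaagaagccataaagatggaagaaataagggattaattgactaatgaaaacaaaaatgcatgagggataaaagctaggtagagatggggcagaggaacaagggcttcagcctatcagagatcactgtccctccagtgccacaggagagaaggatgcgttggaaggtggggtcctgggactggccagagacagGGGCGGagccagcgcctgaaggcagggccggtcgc
Hpgds: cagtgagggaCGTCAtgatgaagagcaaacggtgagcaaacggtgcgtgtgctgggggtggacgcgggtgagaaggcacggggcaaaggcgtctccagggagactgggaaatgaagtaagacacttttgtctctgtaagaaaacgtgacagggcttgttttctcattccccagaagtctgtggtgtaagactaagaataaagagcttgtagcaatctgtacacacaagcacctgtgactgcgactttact

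The Ptgs2 stretch held a C/EBP match (TTGCNNAA) at -162 to -155 from the TSS, which reads the same on both strands, a match to the core of the cyclic AMP response element (CRE core, TGACG, here on the antisense strand) at -80 to -76, and an E-box (CACGTG) at -77 to -72 that shares bases with the CRE core. In Ptges the capitals are GC boxes (GGGCGG) at -51 to -46 and -40 to -35, in Alox5 a GC box at -35 to -30, and in Hpgds a CRE core on the antisense strand at -240 to -236. Of the other members, only Ptgs1 had a match, to a PU.1 motif (GAGGAAGT) at -24 to -17. Searched on both strands in the same window of all 22342 coding genes, the C/EBP motif was found in 9.0% of promoters, the CRE core in 19.6%, the E-box in 6.59%, the PU.1 motif in 2.24% and the GC box in 41.1%. No member had a match to the NF-kB motif (4.25% of all promoters), the ISRE (GAAA, any 2 bases, GAAA, 3.46%) or, on the sense strand alone, the TATA box (TATAAA, 8.31%), which says only that these letters were not in this window. The Ptgs2 and Lta4h windows held 11 CpG dinucleotides each, the Hpgds window 10, the Ptges window 8 and the Alox5ap window 1. The median over all coding genes was 9, with quartiles of 3 and 19.

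With LPS, Ser5 was higher over the 2 genes that make up the inducible prostaglandin E2 route, Ptgs2 and Ptges, and lower over the leukotriene genes, the prostaglandin D2 synthase gene and the thromboxane synthase gene. Tags were counted by their 5′ ends and expressed as TPM, tags per 1000000 counted on chromosomes 1 to 19 and X in that library, and a ratio is TPM after LPS divided by TPM in untreated cells. A gene was called higher or lower where the ratio was at least 2 or at most 0.5 and the 2 Ser5 libraries together had at least 10 tags. Over the whole transcript, 2 of the 9 members were called higher, Ptgs2 and Ptges, where 5.98% of coding genes were called higher. On the other side, 5 members were called lower, Alox5, Alox5ap, Hpgds, Lta4h and Tbxas1, where 11.5% of coding genes were called lower. Counted within 1 kb of the TSS, 2 members were higher (Ptgs2 and Ptges), beside 5.7% of coding genes, and 5 were lower (Alox5, Alox5ap, Hpgds, Ptgs1 and Tbxas1), beside 14% of coding genes. The median ratio of the members was 0.435 over the transcript and 0.363 at the TSS, where that of all genes tested was 0.875 and 0.834. The median gene thus lay below 1, and scaling the libraries so that the median gene is at 1 multiplies each ratio by 1.14.

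**Figure D1:**
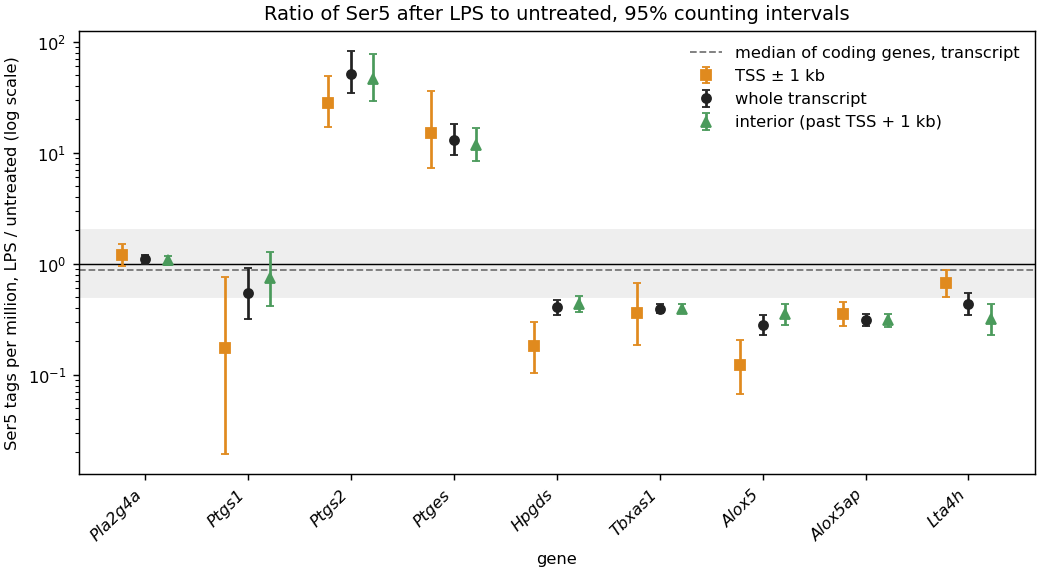
Ratio of Ser5 TPM after LPS to untreated (log scale) for the 9 genes at the TSS (1 kb each side), over the whole transcript and over the interior past 1 kb, 1 library per condition, with bars for 95% counting intervals; the grey band spans ratios of 0.5 to 2 and the dashed line is the median of coding genes, 0.875. Ptgs2 and Ptges lie above the band in all 3 regions, Pla2g4a lies within it, and Alox5, Alox5ap, Hpgds and Tbxas1 lie below it in all 3.

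The Ser5 libraries held 7616771 tags (untreated) and 6249819 tags (LPS) on these chromosomes and the input 7533308. The tags were 45 bases long in the untreated, 30 in the LPS and 36 in the input library, so tag length and treatment cannot be told apart. Of the bases of the 9 transcripts, 4.99% began a 30-base word that occurs again in the genome and 2.72% a 45-base word. Ratios to the input given below compare TPM, and they depend on the scaling: scaled to tags outside the deposited peaks, an alternative chosen for single genes after seeing the data, they are 1.91 times as high for the untreated and 2.06 times as high for the LPS library. Of 54 such ratios of the members (3 regions, both Ser5 libraries), 12 changed whether their interval lay above, below or across 1, and both values are given where the text turns on one of these. In a bulk preparation, more polymerase in each cell and more cells with polymerase cannot be told apart. As a check of the labels, all 6 of 6 genes known to respond to LPS (Tnf, Il1b, Il6, Ccl5, Nfkbia and Cxcl10) were called higher. Macrophage markers (Csf1r, Cd68, Emr1, Itgam, Lyz2 and Sfpi1) carried a Ser5 peak at the TSS in both libraries in 6 of 6 cases. With LPS, 4 of them (Csf1r, Cd68, Itgam and Lyz2) were called lower, where 11.5% of coding genes were. Emr1 was called higher (ratio 3.01), and Sfpi1 was not called (ratio 1.84). The part of these differences in those of the members was not tested.

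Pla2g4a encodes cytosolic phospholipase A2, which releases arachidonate, and had the ratio nearest to 1 among the 9 genes over the transcript. Over its transcript (chr1:151676748-151808420, minus strand) 973 tags were counted in untreated cells, 877 after LPS and 760 in the input. The LPS/untreated ratio was 1.10 (95% interval 1.00 to 1.20). Within 1 kb of the TSS the counts were 149, 147 and 25, a ratio of 1.20 (0.951 to 1.52), an interval that includes 1. This depends on the scaling. With the median gene at 1, the ratio was 1.37 (1.09 to 1.74) at the TSS and 1.25 (1.14 to 1.38) over the transcript. Scaled to tags outside peaks, it was 1.29 (1.02 to 1.64) at the TSS. Both libraries had a peak at the TSS, of score 962.26 in untreated cells and 910.75 after LPS. Both Ser5 libraries stood above the input at the start of the gene, 5.89 times in untreated cells and 7.09 times after LPS. Ser5 was thus already on the Pla2g4a start before LPS, at a density per kb that was higher than over the rest of the gene by 11.3 times in untreated cells and 12.7 times after LPS. The density of the input was higher there by 2.17 times.

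The cyclooxygenase genes behaved unlike each other. Ptgs1, which encodes the cyclooxygenase usually described as constitutive, had 51 tags over its transcript (chr2:36085946-36107792, plus strand) in untreated cells, 23 after LPS and 114 in the input. Ser5 over this gene was 0.442 times the input in untreated cells (0.312 to 0.621) and 0.243 times after LPS (0.148 to 0.383), and 0.846 (0.596 to 1.19) and 0.501 times (0.305 to 0.789) scaled to tags outside peaks, so the library after LPS was below the input under both scalings and the untreated one under the first. The LPS/untreated ratio was 0.550 (0.321 to 0.916) over the transcript. Scaled so that the median gene is at 1 it was 0.628 (0.366 to 1.05). Past the first 1 kb, with 38 and 23 tags, it was 0.738 (0.420 to 1.27). Both of these intervals include 1. At the TSS, 14 tags were counted in untreated cells and 2 after LPS, with 10 in the input, a ratio of 0.174 (0.0192 to 0.758). A weak peak of score 54.86 lay over the Ptgs1 TSS in untreated cells and none after LPS. The call at the TSS of Ptgs1 thus rests on few tags, all but 2 of them from the untreated library.

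Ptgs2, which encodes the inducible cyclooxygenase, was near the bottom of the 9 genes before LPS and at the top after it. Over its transcript (chr1:151947254-151955140, plus strand) 23 tags were counted in untreated cells, 977 after LPS and 37 in the input. In TPM per kb these are 0.383, 19.8 and 0.623, and the LPS/untreated ratio was 51.8 (34.3 to 82.1), rank 9 of the 17288 coding genes compared. Ser5 over Ptgs2 in untreated cells had a ratio to the input of 0.615 (0.349 to 1.06), or 1.18 (0.667 to 2.03) scaled to tags outside peaks, both with intervals that include 1, and after LPS it was 31.8 times the input (22.9 to 45.5). At the TSS the counts were 16 in untreated cells, 367 after LPS and 10 in the input, a ratio of 28.0 (17.0 to 49.4). The difference ran along the whole gene: in 4 equal parts of the transcript the ratio lay between 34.7 and 76.0, and in the 4 kb past the annotated end it was 64.6 (17.4 to 540.3), from 2 tags without LPS and 106 with it. A peak was present at the Ptgs2 TSS in untreated cells too, from -179 to 73 bp, with a score of 65.26 and 13 tags against 5 in the input. It covers the C/EBP, CRE core and E-box matches of the sequence above. After LPS, 10 peaks covered 81.0% of the transcript, and the peak at the start, from -267 to 458 bp, had a score of 3096.73. Of all tags on the 2 cyclooxygenase genes, Ptgs2 had 31.1% (Wilson 95% interval 21.7 to 42.3) in untreated cells and 97.7% (96.6 to 98.5) after LPS, with 24.5% (18.3 to 31.9) in the input. The untreated share overlapped that of the input.

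**Figure D2:**
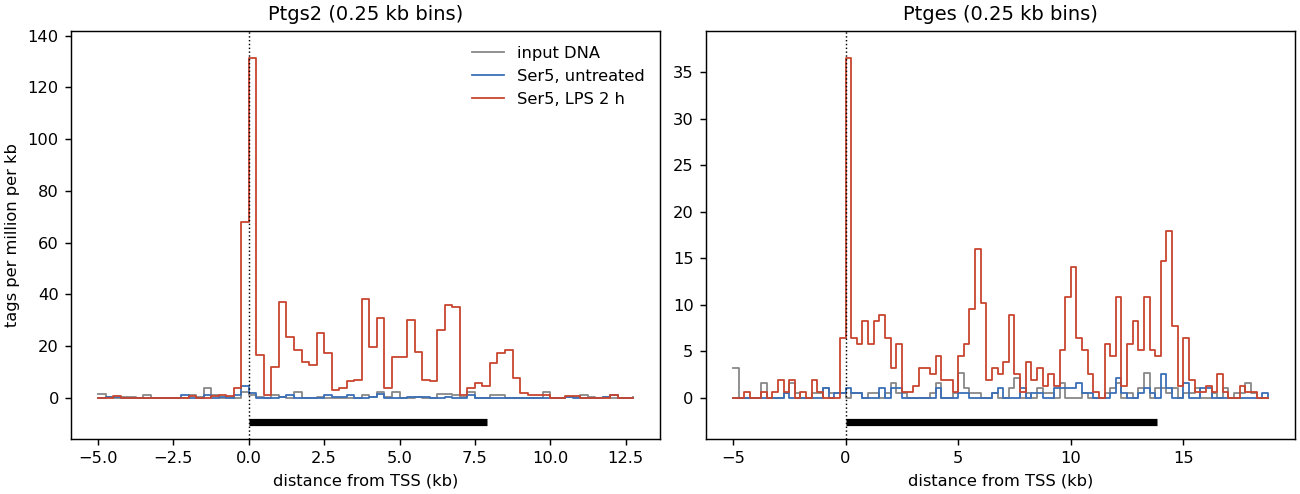
Tag density (TPM per kb, 0.25 kb bins) against distance from the TSS in kb for Ptgs2 and Ptges, with the black bar marking the transcript and 1 line per library. The LPS line stands above the other 2 along most of both transcripts and just past their ends, whereas the untreated line (23 tags on Ptgs2, 44 on Ptges) runs with the input line (37 and 54).

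Around Ptgs2 the largest differences lay over the gene and just past its end. Within 100 kb of its TSS, 1 peak was called in untreated cells, the one at the TSS, and 13 after LPS. Of these 13, 10 lay over Ptgs2, 2 lay just past its end at 8100 to 8994 bp, 1 lay at the start of the non-coding gene Gm17311 at 64616 to 65234 bp, and 0 lay farther upstream than the TSS peak itself. The divergent non-coding gene 7530420F21Rik starts 250 bp before Ptgs2. Beyond the promoter peak it had 21 tags without LPS and 32 with it against 106 in the input, an LPS/untreated ratio of 1.86 (1.04 to 3.39). In the gap between it and Pla2g4a, 113582 bp long, 103 and 106 tags were counted, a ratio of 1.25 (0.947 to 1.66). Between Ptgs2 and Gm17311 there were 35 tags without LPS and 187 with it, a ratio of 6.51 (4.52 to 9.63). Of these, 2 and 106 lay in the 4 kb past the end of Ptgs2. Past those 4 kb, a split chosen after seeing the data, there were 33 and 81, a ratio of 2.99 (1.97 to 4.63). With 207 tags in the input, Ser5 after LPS was there 0.472 times the input (0.360 to 0.613) scaled to all tags. Scaling to tags outside peaks makes such ratios 2.06 times as high. Over the whole gap Ser5 after LPS was 1.02 times the input (0.835 to 1.24), or 2.10 times (1.72 to 2.56) scaled to tags outside peaks. At the Gm17311 peak 21 and 67 tags were counted. Gm17311 was looked at after its values were seen.

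**Figure D3:**
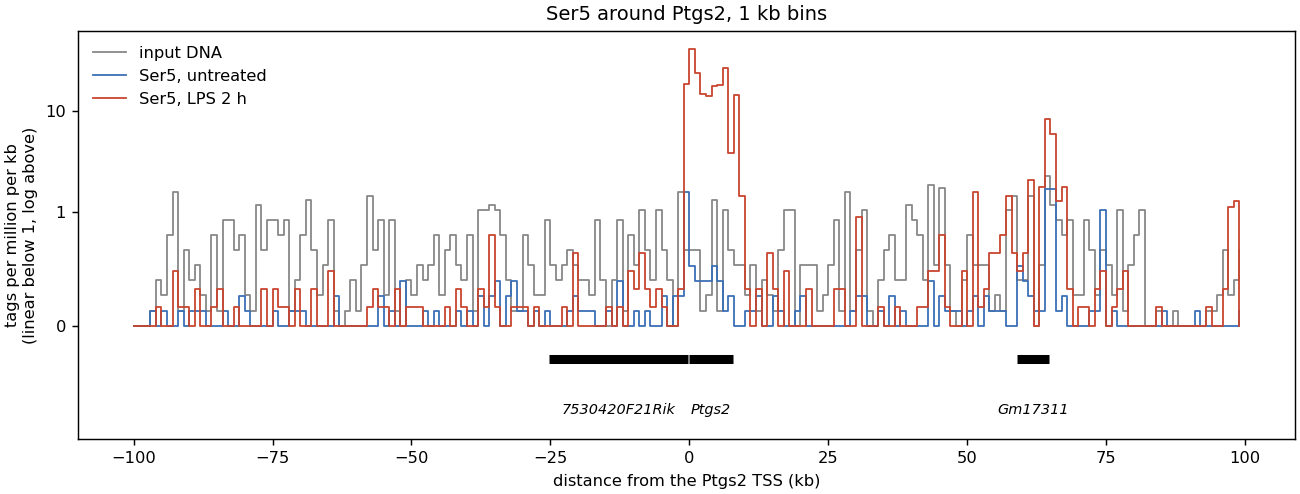
Tag density (TPM per kb in 1 kb bins, linear below 1 and logarithmic above) over 100 kb on each side of the Ptgs2 TSS, with black bars for Ptgs2, 7530420F21Rik and Gm17311. After LPS the signal is high over Ptgs2 and just past its end and a smaller signal stands at Gm17311, where the LPS peak held 67 tags against 21, while no peak was called upstream.

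Among the terminal prostanoid synthases, the prostaglandin E2 and D2 genes lay on opposite sides of 1. Ptges encodes the inducible microsomal prostaglandin E synthase, which acts after Ptgs2. Over its transcript (chr2:30744995-30758819, minus strand) 44 tags were counted in untreated cells, 472 after LPS and 54 in the input, an LPS/untreated ratio of 13.1 (9.59 to 18.2), rank 37 of 17288. At the TSS there were 8, 99 and 7 tags, a ratio of 15.1 (7.36 to 35.9). In untreated cells, Ser5 over Ptges was 0.806 times the input (0.529 to 1.22), or 1.54 times (1.01 to 2.34) scaled to tags outside peaks. No untreated peak was called over this transcript. After LPS, 9 peaks covered 50.7% of the transcript, and the peak over the TSS had a score of 733.64. A further LPS peak lay upstream at -10475 to -9173 bp, with 20 tags in untreated cells, 101 after LPS and 11 in the input, a ratio of 6.15 (3.78 to 10.5). It lies inside the longer span that the annotation's whole Ptges record covers. Measured over that span the ratio of Ptges was 4.70 (4.29 to 5.14), and 2.54 (2.24 to 2.87) at the 5′ end of the record. Without LPS, Ser5 over that span was at least 2 times the input, and a peak was called within 1 kb of that 5′ end. The low untreated signal thus holds only for the coding transcript used here.

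Hpgds encodes the haematopoietic prostaglandin D synthase. Its transcript (chr6:65067287-65094902, minus strand) had 607 tags in untreated cells, 202 after LPS and 156 in the input, and the LPS/untreated ratio was 0.406 (0.344 to 0.476). At the TSS the counts were 120, 18 and 19, a ratio of 0.183 (0.105 to 0.301). Before LPS the start of Hpgds stood 6.25 times above the input (3.83 to 10.7), and after LPS 1.14 times (0.565 to 2.30), or 2.35 times (1.16 to 4.73) scaled to tags outside peaks, so whether it still stood above the input after LPS depends on the scaling. Past the first 1 kb the ratio was 0.437 (0.367 to 0.517), a smaller difference than at the TSS. Its interval does not overlap that of the TSS. In 4 successive equal parts of the transcript the ratio was 0.520, 0.396, 0.388 and 0.346, with overlapping intervals. The difference was thus not smaller toward the far end of the gene. Peaks over the transcript numbered 12 in untreated cells and 3 after LPS, of which 2 overlapped an untreated peak. The LPS peak that had no untreated counterpart lay at 2084 to 2434 bp, with 8 tags without LPS and 21 with it. Bases that begin a repeated word are more frequent here than at the other starts, 14.2% for 30-base and 12.7% for 45-base words. Of the tags on Ptges and Hpgds together, Ptges had 6.76% (Wilson 95% interval 5.07 to 8.95) in untreated cells and 70.0% (66.5 to 73.4) after LPS.

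Tbxas1 encodes thromboxane A synthase and is the longest of the 9 genes (chr6:38868979-39034584, plus strand, 165606 bp). It had 1905 tags in untreated cells, 615 after LPS and 1059 in the input, an LPS/untreated ratio of 0.393 (0.359 to 0.431). Before LPS, Ser5 over Tbxas1 was 1.78 times the input (1.65 to 1.92). After LPS it was 0.700 times (0.633 to 0.774), but 1.44 times (1.30 to 1.59) scaled to tags outside peaks, so its side of the input after LPS turns with the scaling. The TSS carried little signal, with 47, 14 and 27 tags, and a ratio of 0.363 (0.185 to 0.671). Along the gene the ratio was 0.215, 0.341, 0.341 and 0.680 in 4 successive equal parts, and in the 4 kb past the end it was 2.19 (1.54 to 3.16). The converging gene Parp12 ends there and had 338 tags without LPS and 875 with it, a ratio of 3.15. All 6 LPS peaks counted over Tbxas1 lay at its far end, from 159688 bp on, and none overlapped any of the 14 untreated peaks, which were spread over the gene. Without the last of these parts, an alternative chosen after seeing the data, the ratio of Tbxas1 was 0.291 (0.258 to 0.329). The whole gene record of Tbxas1 starts farther upstream, next to the start of Hipk2, and at that 5′ end the ratio was 1.55 (1.20 to 2.00), so the call at the TSS of Tbxas1 holds only for the start of the coding transcript used here.

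All 3 leukotriene genes had less Ser5 after LPS over their transcripts, with 1985 tags in untreated cells, 528 after LPS and 726 in the input between them, a ratio of 0.324 (0.294 to 0.357). They differed in where along the gene the difference lay. Alox5 encodes 5-lipoxygenase. Over its transcript (chr6:116360095-116411196, minus strand) it had 517 tags in untreated cells, 120 after LPS and 314 in the input, a ratio of 0.283 (0.230 to 0.346). The TSS counts were 150, 15 and 17, a ratio of 0.122 (0.0665 to 0.208), the lowest at the TSS among the 9 genes. Ser5 at the Alox5 start was 8.73 times the input (5.27 to 15.4) without LPS and 1.06 times (0.495 to 2.26) with it, or 2.19 times (1.02 to 4.66) scaled to tags outside peaks. Of 4 equal parts of Alox5, the first had an LPS/untreated ratio of 0.0956 (0.0574 to 0.151), the second 0.747 (0.399 to 1.36), the third 0.427 (0.214 to 0.801) and the last 0.428 (0.319 to 0.567), and the interval of the second includes 1. Peaks over Alox5 numbered 8 in untreated cells, with a score of 1030.2 at the TSS, and 2 after LPS, at the TSS with a score of 59.67 and in that last part, toward the converging gene March8, with a score of 58.03. Both overlapped untreated peaks.

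Alox5ap encodes the 5-lipoxygenase-activating protein, which presents arachidonate to 5-lipoxygenase. It was the most densely covered member before LPS, with 1160 tags over its transcript (chr5:150076634-150099621, plus strand), 298 after LPS and 198 in the input. The LPS/untreated ratio was 0.313 (0.275 to 0.356). At the TSS the counts were 284, 83 and 19, a ratio of 0.356 (0.275 to 0.456). The start of Alox5ap stood above the input after LPS as well, at 5.27 times (3.17 to 9.18), against 14.8 times (9.29 to 24.9) before. Of 17 peaks over the transcript in untreated cells 4 were met by a peak after LPS, when 5 were called, each of them overlapping an untreated peak. The untreated peak with the highest score, 2016.54, lay not at the TSS but from 1514 to 2895 bp inside the gene. It had 300 tags without LPS and 108 with it, a ratio of 0.439 (0.349 to 0.548). The untreated peak at the TSS had a score of 1300 but a higher density, 33.1 against 28.5 TPM per kb in untreated cells.

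Lta4h encodes leukotriene A4 hydrolase, which makes leukotriene B4. It had 308 tags over its transcript (chr10:92916141-92947641, plus strand) in untreated cells, 110 after LPS and 214 in the input, a ratio of 0.435 (0.347 to 0.543). At the TSS there were 148, 81 and 21 tags, a ratio of 0.667 (0.502 to 0.880), so Lta4h was not called there. Past the first 1 kb the ratio was 0.317 (0.229 to 0.430), an interval that does not overlap that of the TSS, and the order of TSS and interior is thus the reverse of that in Alox5 and Hpgds. Over this interior, Ser5 was 1.00 times the input before LPS (0.822 to 1.23), or 1.92 times (1.57 to 2.34) scaled to tags outside peaks, and below it after LPS under both scalings, at 0.318 (0.230 to 0.432) and 0.655 times (0.474 to 0.890). The only peak over the transcript in either library was at the TSS, with a score of 1085.41 in untreated cells and 463.78 after LPS. The 4 kb past the end of Lta4h had 171 tags without LPS and 27 with it, and there the next gene on the same strand, Hal (histidine ammonia-lyase), begins 35372 bp from the Lta4h TSS, with 1279 and 159 tags over its transcript. Hal and the other neighbours were looked at after their values were seen.

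**Figure D4:**
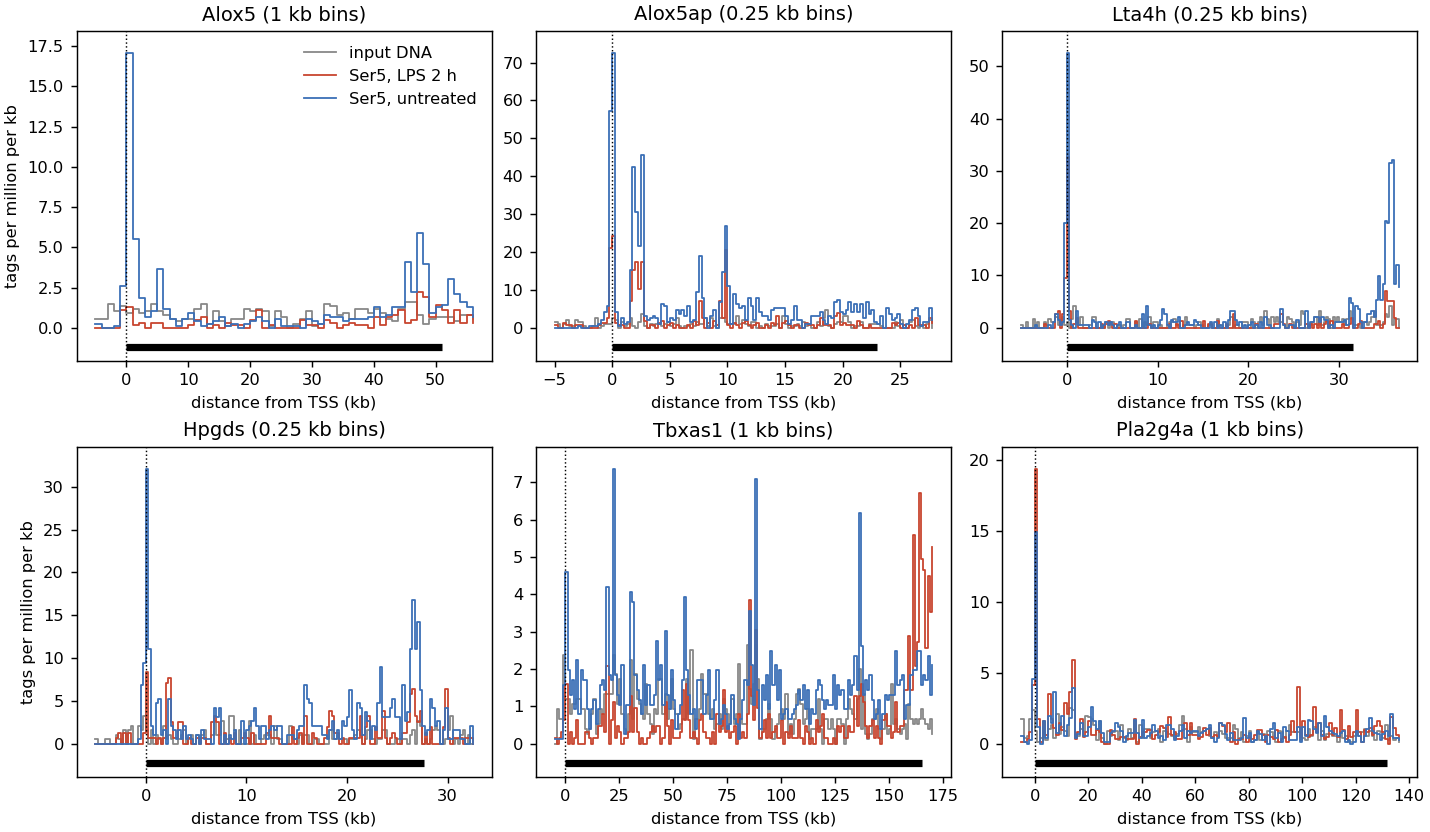
Tag density (TPM per kb, bins of 0.25 or 1 kb as given in each title) against distance from the TSS in kb for the 3 leukotriene genes, Hpgds, Tbxas1 and Pla2g4a, with the black bar marking the transcript and 1 line per library. Untreated Ser5 stands above LPS at the starts of Alox5, Alox5ap, Lta4h and Hpgds, both lines meet at Pla2g4a (149 and 147 tags at the TSS), and LPS stands higher at the far end of Tbxas1, beside Parp12.

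How the TSS compares with the rest of the gene can be read within a library, where scaling plays no part. The density per kb within 1 kb of the TSS was divided by that past the first 1 kb. The median of coding genes was 5.72 in untreated cells, 5.70 after LPS and 1.40 in the input, so the input too was denser at the start. In Lta4h this quotient was 11.1 (8.89 to 13.7) in untreated cells and 23.3 (16.3 to 33.6) after LPS, and in Alox5 it was 9.70 (7.98 to 11.7) and 3.35 (1.82 to 5.77). The intervals of the 2 libraries do not overlap in either gene, and the quotient was higher after LPS in Lta4h and lower in Alox5. In Hpgds it was 3.08 (2.50 to 3.76) and 1.29 (0.746 to 2.09), lower after LPS, beside 1.68 (0.987 to 2.72) in the input. The other 6 genes had intervals that overlapped between the libraries, among them Alox5ap with 3.10 and 3.56, Pla2g4a with 11.3 and 12.7, and Ptgs2 with 2.90 and 1.74. Both genes with more Ser5 after LPS had low quotients after LPS, 1.74 for Ptgs2 and 1.66 for Ptges, with Ser5 spread over the gene. This was not particular to them. Quotients after LPS were 0.906 (0.104 to 3.67) in Ptgs1, 1.29 in Hpgds and 1.90 (1.03 to 3.22) in Tbxas1, and Ptges was at 1.28 before LPS.

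Compared per length, Ptgs2 and Ptges took the first 2 places among the 9 transcripts after LPS, while Alox5ap and Hpgds led the other 7 and Ptgs1 was last in both libraries. In untreated cells the densities in TPM per kb ran from Alox5ap (6.63) over Hpgds (2.89), Tbxas1 (1.51), Alox5 (1.33), Lta4h (1.28), Pla2g4a (0.970), Ptges (0.418) and Ptgs2 (0.383) to Ptgs1 (0.306). Within this order the intervals of neighbours overlapped for Tbxas1 and Alox5, Alox5 and Lta4h, Ptges and Ptgs2, and Ptgs2 and Ptgs1. After LPS the order was Ptgs2 (19.8), Ptges (5.46), Alox5ap (2.07), Hpgds (1.17), Pla2g4a (1.07), Tbxas1 (0.594), Lta4h (0.559), Alox5 (0.376) and Ptgs1 (0.168), with overlapping intervals for Hpgds and Pla2g4a and for Tbxas1 and Lta4h. The median coding gene had 0.405 TPM per kb in untreated cells and 0.339 after LPS. Alox5ap was at the 94.5 percentile of coding genes by density before LPS and at the 82.2 percentile after it, and Ptgs2 moved from the 49.3 to the 98.8 percentile. In the input all 9 densities lay between 0.518 and 1.14.

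**Figure D5:**
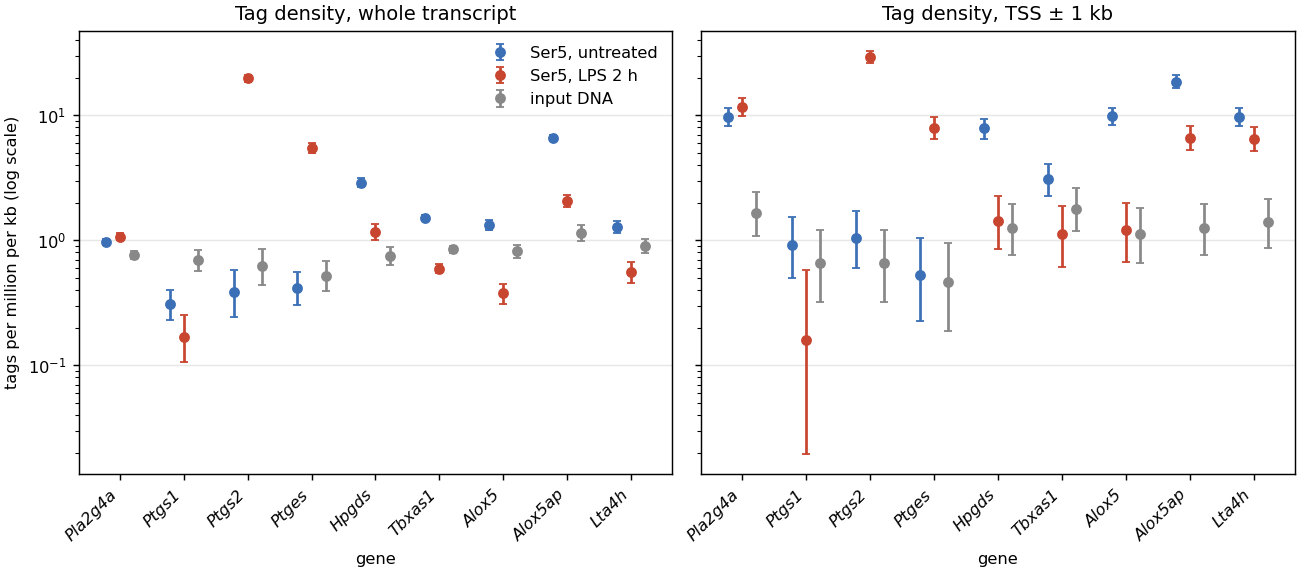
Tag density in TPM per kb (log scale) of the 9 genes in the 3 libraries over the whole transcript and within 1 kb of the TSS, with points for the value of each library and bars for 95% counting intervals. After LPS, Ptgs2 (19.8 over the transcript) and Ptges (5.46) are the highest of the 9, and in untreated cells Alox5ap (6.63) is.

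At the TSS, 8 of the 9 members overlapped a deposited peak in untreated cells, all but Ptges, where 47.9% of coding genes did. After LPS, 7 members did, all but Ptgs1 and Tbxas1, where 45.9% of coding genes did. By the whole gene record 9 members did in untreated cells, Ptges included, and 8 after LPS. Peaks of Ptgs1, Ptgs2 and Tbxas1 in untreated cells were weak, and 5 of the 8 stayed with a threshold of 1e-10 for the MACS p-value. After LPS those of Alox5 and Hpgds were weak, and 5 of the 7 stayed. Over the transcript, Ser5 was at least 2 times the input for 2 members in untreated cells, Alox5ap at 5.79 times (4.98 to 6.77) and Hpgds at 3.85 times (3.22 to 4.62), beside 36.9% of coding genes. After LPS it was so for 2 other members, Ptgs2 and Ptges, beside 32.3% of coding genes. Scaled to tags outside peaks the counts were 6 of 9 members, beside 54.5% of coding genes, and 5 of 9, beside 51.3%, so nothing is read from them.

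The other genes of the pathway, 58 enzymes, receptors and transporters of eicosanoid metabolism, were called in both directions. Of these, 54 had enough tags, 5 were called higher (9.26%, beside 5.98% of coding genes) and 6 lower (11.1%, beside 11.5%) over the transcript, shares near the background, with a median ratio of 0.953. Higher were the receptor genes Fpr2 (formyl peptide and lipoxin receptor, 100 tags without LPS and 565 with it, ratio 6.89) and Ptger2 (a prostaglandin E2 receptor, 147 and 331, ratio 2.74), Pla2g7 (platelet-activating factor acetylhydrolase, 249 and 649, ratio 3.18) and the leukotriene C4 transporter gene Abcc1 (2027 and 3942, ratio 2.37). The fifth, Alox15, had 7 and 12 tags and an interval of its ratio that includes 1 (0.758 to 6.26). Lower were Pla2g10 (a secreted phospholipase A2, ratio 0.264), Pla2g15 (lysosomal phospholipase A2, 0.243), Cbr1 (carbonyl reductase, 0.367), Mgst3 (a microsomal glutathione transferase, 0.435) and the leukotriene B4 receptor genes Ltb4r1 (29 and 8 tags, 0.336) and Ltb4r2 (28 and 4 tags, 0.174). Of these, Pla2g10 had 60 and 13 tags against 70 in the input and no peak at its TSS in either library. Further along the leukotriene route, Ltc4s, leukotriene C4 synthase, had 155 tags without LPS and 154 with it, a ratio of 1.21 (0.962 to 1.52), an interval that does not overlap those of Alox5, Alox5ap and Lta4h over the transcript. A peak was called at the Ltc4s TSS in untreated cells and none after LPS. The other prostaglandin E synthase genes, Ptges2 and Ptges3, had ratios of 1.12 and 1.11, where Ptges had 13.1.

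Of the 14068 coding genes outside these lists with at least 50 tags over both libraries, those closest to Ptgs2 in log2 TPM per kb in both Ser5 libraries, 2 values per gene, were AW112010 (0.489 and 17.9 TPM per kb, distance 0.38), Cd69 (0.538 and 20.8, distance 0.50) and Edn1 (0.488 and 14.1, distance 0.60). Markers of other cells in which these enzymes are well known were also counted. Summed over each list, Ser5 over 5 mast cell markers, where Hpgds and the leukotriene genes are known to be active, was 0.274 times the input in untreated cells and 0.200 times after LPS, with 0 peaks at a TSS, and that over 5 megakaryocyte markers, where Ptgs1 and Tbxas1 are, was 1.03 and 0.980 times. Scaled to tags outside peaks these sums were 0.524 and 0.412 times the input for the mast cell and 1.98 and 2.02 times for the megakaryocyte markers. Densities of the mast cell markers lay between 0.0409 and 0.136 TPM per kb in untreated cells and between 0 and 0.114 after LPS, with Tpsb2 listed at 0 after LPS. Those of the megakaryocyte markers lay between 0.161 and 2.77 and between 0.295 and 2.37, Pf4 (platelet factor 4) being the highest, with a Ser5 peak at its TSS in both libraries and 20 tags in untreated cells, 14 after LPS and 8 in the input, and the part of such cells in the values of Ptgs1 and Tbxas1 was not tested. Lists of neutrophil precursor, T cell, B cell and fibroblast markers summed to between 0.170 and 0.403 times the input in untreated cells and between 0.217 and 0.579 times after LPS, and to at most 0.771 and 1.19 times scaled to tags outside peaks. Within them Camp (11 and 29 tags) and Ms4a1 (12 and 34 tags) were called higher.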

How the data were processed

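Genomic DNA from Ser5 Pol_II ChIP and from input was sequenced by the authors, who trimmed the reads and aligned them to mm9 with Bowtie (version not given in the sources used here). Tags with 1 match and no more than 2 mismatches were kept, and peaks of each Ser5 library were called by MACS with input as control (p-value limit 1e-05). The deposited tag files give position and strand of each tag, duplicates included. The deposited peak lists hold a score, minus 10*log10 of the MACS p-value. The methods state the trim lengths of both Ser5 libraries the other way round from the tags in the files, and a figure of the study names LPS with gamma interferon for Ser5 data where the labels and methods of this library give LPS alone, so whether gamma interferon was present is in doubt. The libraries are used as labelled.

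Tags were counted by their 5′ end over the coding transcript with the longest coding sequence of each GENCODE M1 gene and within 1 kb of its TSS, with Python 3.11.15, numpy 2.4.6, pandas 2.3.3 and scipy 1.17.1. Positions were read as deposited, and an offset of 1 base is not settled. Ratios have exact conditional binomial intervals, densities exact Poisson and shares Wilson intervals at 95%. Duplicate tags are not independent molecules: 84.5% of untreated, 81.4% of LPS and 82.7% of input tags had a position and strand of their own or were the first there. Counting and intervals were tested on simulated data. Members, gene lists and motifs were chosen with earlier results of these data known. All members are named. Pathway genes are named where called with an interval that excludes 1, with Alox15, Ltc4s, Ptges2 and Ptges3 named after their values were seen, and the 3 genes nearest to Ptgs2 are named by distance. Alternatives covered scaling, duplicates, tag position, transcript, filters, windows and peak thresholds.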

Additional observations from a re-analysis of the deposited data

How the results depend on the processing

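No paired analysis was possible because each condition had 1 library, which also leaves no replicate to leave out. The calls of members higher and lower after LPS, over the transcript and at the TSS, kept their counts within 1.5 times under each scaling, filter, window, tag position, transcript and duplicate setting tried. Scaling to tags outside the peaks changed the members at least 2 times over the input from 2 to 6 in untreated cells and from 2 to 5 after LPS, since it raises every ratio to the input. For single genes this scaling, added after seeing the data, turned 3 of 54 ratios to the input, all after LPS: 1.28 over Lta4h (0.620 scaled to all tags), 1.44 over Tbxas1 and 1.43 over its interior. Peaks at the TSS with a p-value of at most 1e-10 left 5 members in untreated cells in place of 8, and 5 after LPS in place of 7. With the whole gene record 9 members had a peak there in untreated cells and 8 after LPS. That record also put 3 members, Ptges among them, at least 2 times over the input in untreated cells, beside 37.6% of coding genes. Of 118 LPS/untreated ratios of single genes under an alternative, 117 lay on the same side of 1, and the exception was Tbxas1 at the 5′ end of the whole gene record, with a ratio of 1.55, where the window lies next to the start of Hipk2. Ptgs1 at the TSS, with 14 and 2 tags, was not tested with a minimum of 30 tags, which left 4 members lower there, and the whole gene record, without Tbxas1, left 4 too. Ratios rest on 1 library each, so the spread between cultures is unknown.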
